A study of Homo sapiens with 3 samples.

Results

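The genes described here encode the negative feedback of the MAP kinase pathway: 4 dual-specificity phosphatases (DUSP1, DUSP4, DUSP5, DUSP6), 3 Sprouty proteins (SPRY1, SPRY2, SPRY4), the Sprouty-related proteins SPRED1 and SPRED2, and PHLDA1. They were taken by gene symbol, with any locus whose joined name held the symbol. All 10 were found among 22714 gene names, each on 1 locus of its own, and none stood in a joined name. The study profiled messenger RNA of TC32 cells, a long-established line from a Ewing sarcoma driven by the fusion oncoprotein EWS-FLI1, in 3 libraries. These were a control labelled WT, cells with knockdown of EWS-FLI1, and cells given 3 µM YK-4-279 for 15 hours in DMSO. YK-4-279 is a small molecule known for disrupting the contact between EWS-FLI1 and its partner RNA helicase A. Each group was 1 library of 1 line, the duration and hairpin of the knockdown and the vehicle status of the control are not in the labels, and the heading of the knockdown values reads dEF where the title reads shEF.

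Growth factor receptors signal through RAS and a cascade of kinases to ERK1 and ERK2, and active ERK switches on genes whose products shut the pathway down again. Dual-specificity phosphatases remove the phosphates from the activation loop of MAP kinases, Sprouty and SPRED proteins act further up, nearer the receptor, and their messenger RNAs are short-lived and widely read as a gauge of ERK output. In Ewing sarcoma, the fusion joins the DNA-binding domain of an ETS factor to a strong activation domain. ETS factors recognise the core GGAA, and ETS proteins are also among the factors through which ERK acts on its targets.

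RefSeq start sites (GRCh38.p14) were available for 8 of the 10 genes, and the 250 bases before the first listed start of 4 of them are printed because these genes had the highest levels in the knockdown library. Capitals mark each GGAA core, on either strand, and in DUSP1 the cyclic AMP response element TGACGTCA. Sequences run 5′ to 3′ on the strand of the gene.
DUSP6 (chr12:89352502-89352751, - strand): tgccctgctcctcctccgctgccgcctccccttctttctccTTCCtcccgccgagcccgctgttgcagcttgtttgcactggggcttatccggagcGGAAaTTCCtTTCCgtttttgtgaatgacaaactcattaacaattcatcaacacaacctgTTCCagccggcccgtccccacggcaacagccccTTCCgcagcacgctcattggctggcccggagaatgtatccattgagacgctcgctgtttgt
SPRY1 (chr4:123396545-123396794, + strand): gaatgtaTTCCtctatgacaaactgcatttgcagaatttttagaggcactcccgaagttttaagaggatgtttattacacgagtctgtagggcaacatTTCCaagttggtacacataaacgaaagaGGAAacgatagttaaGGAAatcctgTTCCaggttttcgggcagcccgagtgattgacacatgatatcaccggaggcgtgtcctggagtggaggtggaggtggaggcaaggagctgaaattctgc
PHLDA1 (chr12:76031777-76032026, - strand): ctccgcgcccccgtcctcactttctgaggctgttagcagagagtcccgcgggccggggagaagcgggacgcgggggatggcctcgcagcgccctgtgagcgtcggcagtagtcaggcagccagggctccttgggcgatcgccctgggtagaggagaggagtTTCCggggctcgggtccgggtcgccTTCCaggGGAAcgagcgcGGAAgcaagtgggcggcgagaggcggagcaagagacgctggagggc
DUSP1 (chr5:172771196-172771445, - strand): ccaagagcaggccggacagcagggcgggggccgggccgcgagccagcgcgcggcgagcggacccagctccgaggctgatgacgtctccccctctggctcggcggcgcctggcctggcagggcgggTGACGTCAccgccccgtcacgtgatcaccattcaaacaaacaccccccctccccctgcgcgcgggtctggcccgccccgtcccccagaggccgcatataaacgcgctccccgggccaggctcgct
DUSP6 held 6 cores, a number reached by 9.14% of the 35116 RefSeq promoter windows of this length. SPRY1 held 5 (18.6% of windows had as many), PHLDA1 held 4 (34.3%) and DUSP1 held 0, although 92.7% of all windows had at least 1. The window of the other listed SPRY1 start held 4. The genes that were highest after knockdown thus ranged from 0 to 6 cores. The response element of DUSP1 lay 125 to 118 bases before the start, and 1.65% of all windows contain that motif. The tandem core GGAAGGAA, the longer ETS site CCGGAAGT and the AP-1 site TGACTCA had no match in the 12 windows of the 8 genes. Nor did TGAATGAA and TGAATGGA, which are forms of the CIC repressor site. All were searched on both strands. In the order named, these motifs occurred in 3.06%, 3.42%, 4.2%, 1.4% and 0.832% of all windows. Other forms of the CIC site were not searched, so the windows, that of DUSP6 included, are not shown to lack a CIC site.

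Values are FPKM, fragments scaled to locus length and to the mapped total. Of all names, 9939 had a mean of at least 1 FPKM, and 9883 of these were above 0 in every library. The median of those 9883 as deposited lay 4.42-fold under the control after knockdown and 6.36-fold under it with YK-4-279. Libraries were therefore scaled on the median ratio of the 9883 genes (factors 0.325, 1.44 and 2.12 for control, knockdown and YK-4-279), and "scaled FPKM" means these values. The relative log2 ratio is the difference of log2(scaled FPKM + 1), which understates changes of scarce genes, and calls, higher or lower, were made at 1 or beyond. With 1 library per group there is no replicate spread, so no test and no p-value is given and calls describe these libraries. From the steps in low values, 1 fragment in 1 kb was worth 0.0654, 0.0168 and 0.0126 deposited FPKM in the 3 libraries (0.0212, 0.0242 and 0.0267 scaled FPKM). The control was thus the shallowest library and YK-4-279 the deepest, and 61, 89 and 106 of 137 olfactory receptor genes were above 0 in control, knockdown and YK-4-279. Intervals (95%, Poisson for levels and exact binomial for folds) come from fragments estimated with these steps and the longest GENCODE transcript. They cover counting error only.

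The targeted transcript was checked first. FLI1, which carries the DNA-binding part of the fusion, had 65.9 FPKM (control), 1.48 (knockdown) and 8.29 (YK-4-279), with relative log2 ratios of -2.84 and -0.27. EWSR1, also read from the unrearranged allele, stood at -0.45 and -0.06. Ewing sarcoma markers were present in the control, with NR0B1 at 117 FPKM and STEAP1 at 545, but NKX2-2 had 2.63 and CD99 was listed at 0 in all 3 libraries. Olfactory receptor genes, which should be silent, and loci without a gene name shifted with the scaling. The mean of 137 olfactory receptor genes was 0.0203, 0.0781 and 0.112 scaled FPKM in control, knockdown and YK-4-279. Unnamed loci were read where they were above 0 in all 3 libraries (48567 loci). After scaling, their median ratio to control was 5.20-fold in the knockdown library and 8.33-fold with YK-4-279.

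On the scale used here, feedback genes of each family were called higher after knockdown of EWS-FLI1, while with YK-4-279 all 10 lay inside the threshold. The folds of SPRED1 and SPRED2 after knockdown, 5.85 and 5.89, were close to the 5.20-fold shift of unnamed loci. As deposited, 5 members were higher after knockdown and 1 was lower with YK-4-279, and 5 were higher with YK-4-279 at a pseudocount of 0.1 or 0.01 and 9 on centred deposited ratios. SPRY1, PHLDA1 and DUSP6 had the highest relative log2 ratios after knockdown, 3.19, 2.92 and 2.98. Of the 10 genes, 9 were called higher in the knockdown library and 0 lower. Among the 9939 genes 17.3% were higher and 17.0% lower, and among all 22714 names 9.18% and 7.44%. On the scale named in the plan, all named genes above 0, SPRY2 (0.87), SPRED1 (0.81) and SPRED2 (0.99) were not called. As reported, the median ratio of the 10 genes was 1.81, beside 0.0064 for the 9939 genes and 0.048 for all names. With YK-4-279, 0 were called in either direction, against 2.41% higher and 1.69% lower among the 9939 genes and 1.6% and 0.74% among all names, and the median was 0.20 beside 0.029. Of the 9939 genes, 1715 were higher and 1689 lower after knockdown, and 240 and 168 with YK-4-279; on deposited values the splits were 301 against 7094 and 57 against 9160. The 2 comparisons use the same control library, and the members were chosen with earlier results of these data known.

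**Figure D1:**
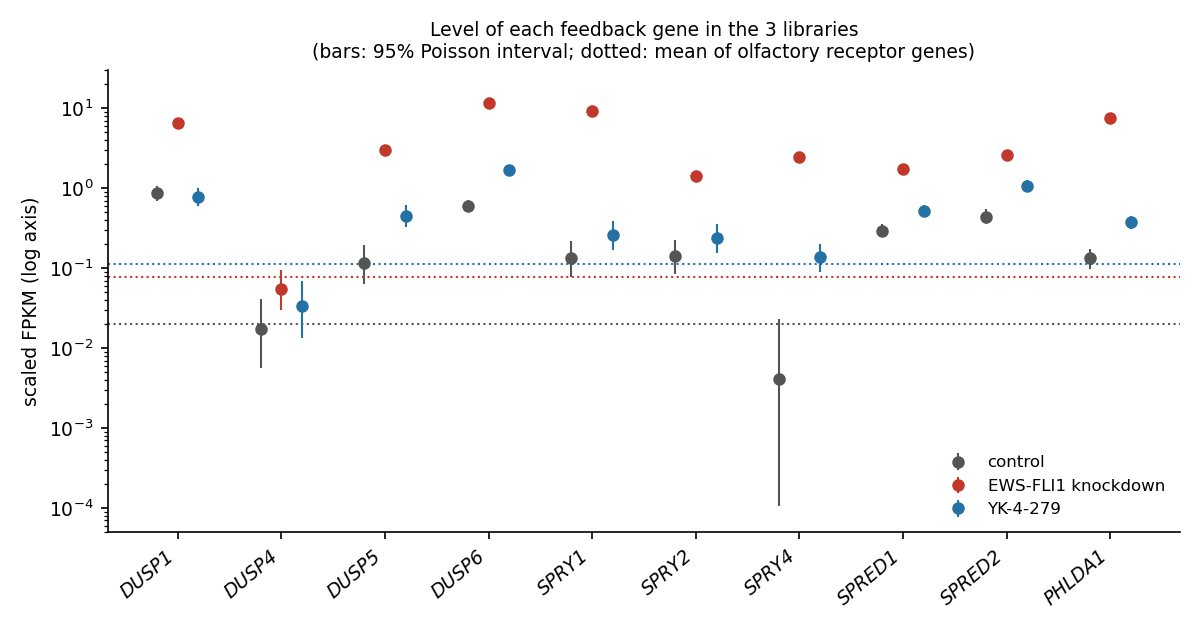
Scaled FPKM on a log axis of the 10 feedback genes in control, EWS-FLI1 knockdown and YK-4-279 cells, with 95% Poisson intervals from estimated fragments; dotted lines give the mean of 137 olfactory receptor genes in the library of the same colour. The knockdown point is the highest of the 3 for all 10 genes, and DUSP4 lies below the olfactory line of each library.

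The MAP kinase phosphatases came apart into 3 genes that were higher after knockdown and 1 that was scarcely detected. DUSP6, a cytoplasmic phosphatase with a strong preference for ERK, went from 1.85 FPKM in control cells to 8.08 after knockdown and 0.810 with YK-4-279. Scaled, these were 0.599 (interval 0.498 to 0.714), 11.6 (11.1 to 12.1) and 1.71 (1.52 to 1.93). The knockdown library stood 19.4-fold above the control (16.2 to 23.5), and the YK-4-279 library 2.86-fold above it (2.31 to 3.56), a relative log2 ratio of 0.76. The knockdown level was far above the others, whereas the place of YK-4-279 against control depends on the scale, with log2 ratios of -0.65 as deposited and -0.51 on an olfactory receptor scale. The 2.86-fold ratio is also below the 8.33-fold shift of unnamed loci. On the scaled values DUSP6 was the most abundant of the 10 genes in both treated libraries.

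DUSP5, the nuclear phosphatase that holds ERK in the nucleus, had 0.360, 2.09 and 0.214 FPKM in control, knockdown and YK-4-279. Its scaled levels of 0.117, 3.01 and 0.453 gave a 25.7-fold difference after knockdown (15.1 to 47.6, relative log2 ratio 1.84) and a 3.87-fold one with YK-4-279 (2.08 to 7.66, relative log2 ratio 0.38). The control level rests on about 14 fragments, and the YK-4-279 ratio is below the 8.33-fold shift of unnamed loci. DUSP1, a nuclear phosphatase of ERK, JNK and p38 and itself an immediate early gene, had 2.68, 4.58 and 0.372 FPKM. It was the most abundant of the 10 in the control, at 0.870 scaled FPKM, and stood at 6.59 in the knockdown library and 0.788 with YK-4-279. After knockdown it was 7.57-fold higher (6.0 to 9.66, relative log2 ratio 2.02), beside a 5.20-fold shift of unnamed loci and a ratio of 1.71 as deposited. With YK-4-279 the ratio of 0.906 had an interval of 0.639 to 1.28 that includes no difference. DUSP1 was the 1 member with a scaled level below the control in the YK-4-279 library.

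DUSP4, a nuclear phosphatase close in family to DUSP1, had 0.0540, 0.0386 and 0.0159 FPKM, from about 5, 13 and 7 fragments. The scaled levels of 0.0175, 0.0556 and 0.0336 were 0.864, 0.712 and 0.301 times the olfactory mean of their library. DUSP4 was thus not detected above the level of silent genes in any of the 3 libraries, and its relative log2 ratios were 0.05 and 0.02.

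Among the Sprouty genes, whose products are ERK-induced inhibitors of receptor tyrosine kinase signalling, SPRY1 and SPRY4 were the furthest from control. SPRY1 went from 0.416 FPKM in control cells to 6.53 after knockdown and 0.123 with YK-4-279, or 0.135, 9.39 and 0.260 scaled. The knockdown level was 69.5-fold above the control (43.2 to 119.8), the largest relative log2 ratio of the 10 genes at 3.19. With YK-4-279 the ratio was 1.93 (1.00 to 3.80), from about 17 and 25 fragments, so that control and compound were barely separated by counting.

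SPRY4 had 0.0128 FPKM in control cells, which is about 1 fragment, 1.69 after knockdown, about 495 fragments, and 0.0649 with YK-4-279, about 25 fragments. The knockdown ratio of 584 therefore has an interval from 104 to 23095. The scaled level with YK-4-279, 0.137, was 1.23 times the olfactory mean of that library, and its ratio to control of 33.0 spans 5.41 to 1356. SPRY4 was thus near silent in control and compound and clearly present after knockdown, with relative log2 ratios of 1.77 and 0.18.

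SPRY2, the best studied Sprouty, which binds GRB2 and CBL, had 0.436, 0.988 and 0.114 FPKM. Scaled, it moved from 0.141 in the control to 1.42 in the knockdown library and 0.242 with YK-4-279. The 10.1-fold ratio after knockdown (6.16 to 17.4) gave a relative log2 ratio of 1.09, just past the threshold, and the ratio of 1.71 with YK-4-279 (0.889 to 3.34) includes no difference. SPRY2 had the lowest knockdown level of the 3 Sprouty genes, although in the control its level and that of SPRY1 had overlapping intervals.

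SPRED1 and SPRED2, which bring the RAS inhibitor neurofibromin to the membrane, had the smallest folds of the called genes. SPRED1 had 0.913, 1.2 and 0.245 FPKM in control, knockdown and YK-4-279, or 0.296, 1.73 and 0.520 scaled. It was 5.85-fold higher after knockdown (4.75 to 7.25, relative log2 ratio 1.08) and 1.75-fold higher with YK-4-279 (1.36 to 2.26, 0.23). SPRED2 had 1.36, 1.81 and 0.510 FPKM, or 0.443, 2.61 and 1.08 scaled, with ratios of 5.89 (4.66 to 7.52, relative log2 ratio 1.32) and 2.44 (1.87 to 3.21, 0.53). After knockdown both lie close to the 5.20-fold shift of unnamed loci. These SPRED ratios are thus not set apart from that shift by counting error. With YK-4-279 both ratios are below the 8.33-fold shift of unnamed loci, and as deposited both genes were lower than in the control.

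PHLDA1, a pleckstrin homology domain protein induced by growth factors and known for blunting receptor tyrosine kinase signals, went from 0.408 FPKM in control cells to 5.28 after knockdown and 0.178 with YK-4-279. Scaled, it stood at 0.132, 7.60 and 0.376. The ratio was 57.4 after knockdown (43.4 to 77.5) and 2.84 with YK-4-279 (2.02 to 4.05), with relative log2 ratios of 2.92 and 0.28. Like SPRY1, it was scarce in control and compound and among the 3 most abundant members after knockdown. Its ratio with YK-4-279 is below the 8.33-fold shift of unnamed loci.

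**Figure D2:**
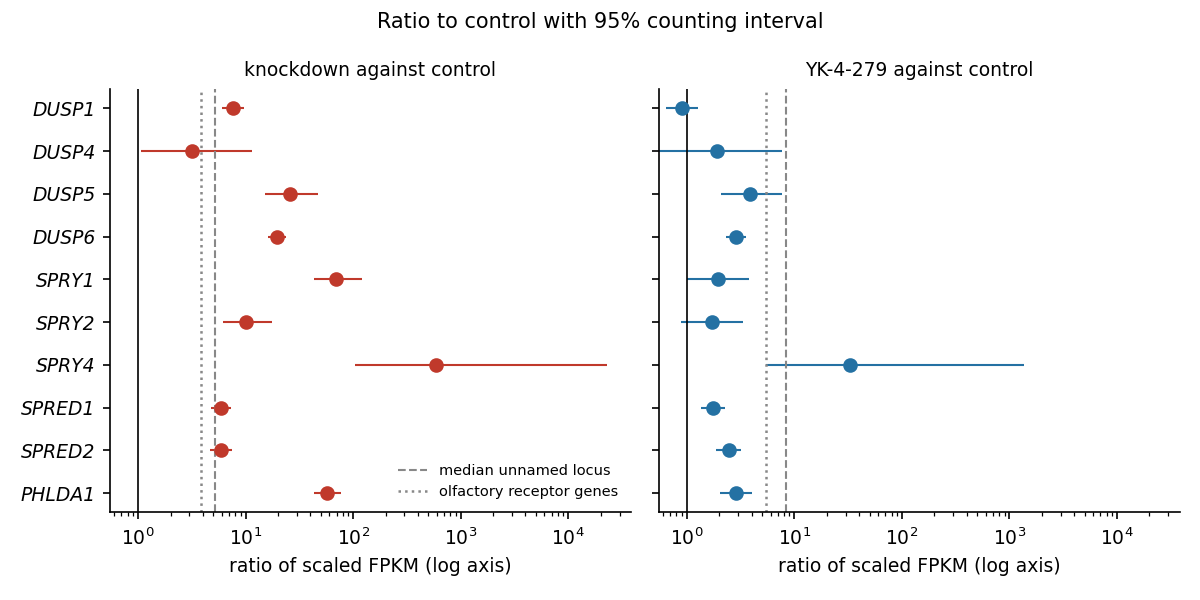
Ratio of scaled FPKM to control, without an added value and on a log axis, for the knockdown library (left) and the YK-4-279 library (right), with 95% exact binomial counting intervals; dashed and dotted lines mark the median unnamed locus and the mean olfactory receptor gene. After knockdown 9 of 10 genes lie above both lines, while with YK-4-279 SPRY4 is the 1 gene above them.

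The order of the 10 genes by level differed between libraries. In the control, DUSP1, DUSP6, SPRED2 and SPRED1 led, with intervals overlapping from each to the next, and SPRY2, SPRY1, PHLDA1 and DUSP5 followed between 0.117 and 0.141 scaled FPKM with overlapping intervals. In the knockdown library DUSP6, SPRY1, PHLDA1 and DUSP1 came first, each with an interval apart from the next, and DUSP5, SPRED2 and SPRY4 followed with overlapping ones. With YK-4-279 DUSP6 led alone, and from SPRED2 at 1.08 down to SPRY4 at 0.137 each gene overlapped its neighbour. All 10 genes were below 1 scaled FPKM in the control and 8 were with YK-4-279, against 1, DUSP4, after knockdown. Summed over the 10 genes, the level was 2.76 scaled FPKM in the control, 46.5 after knockdown and 5.60 with YK-4-279.

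Because the members were scarce in the control, the filter and the scale bear on them. A mean of 1 FPKM was reached by 5 members, DUSP1, DUSP6, SPRED2, SPRY1 and PHLDA1, and the last 3 only through the knockdown library, since their other values average below 1, so values above are given for all 10. Scarce genes were generally higher and abundant genes lower after knockdown. Ranked by level in the YK-4-279 library, the lowest of 5 equal groups of genes had a median ratio of 0.65 and the highest -0.96, and 9 members fell in the lowest group and DUSP6 in the next. Relative to its group, DUSP6 had a ratio of 2.53, SPRY1 of 2.55, PHLDA1 of 2.28, DUSP1 of 1.37, DUSP5 of 1.2 and SPRY4 of 1.13, while SPRED2 at 0.68, SPRY2 at 0.44 and SPRED1 at 0.43 no longer passed the threshold and DUSP4 turned to -0.59. On deposited values, 9 of 10 members had more FPKM after knockdown than in the control, DUSP4 excepted, whereas 8.73% of the 9939 genes did. With YK-4-279, 9 of 10 had fewer deposited FPKM, SPRY4 excepted, as did 98.5% of the 9939 genes. Both shares are of unlike sets, because the 9939 genes hold 5 of the 10 members and leave out the scarcer names. Shares over all names or over genes of like level were not computed.

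**Figure D3:**
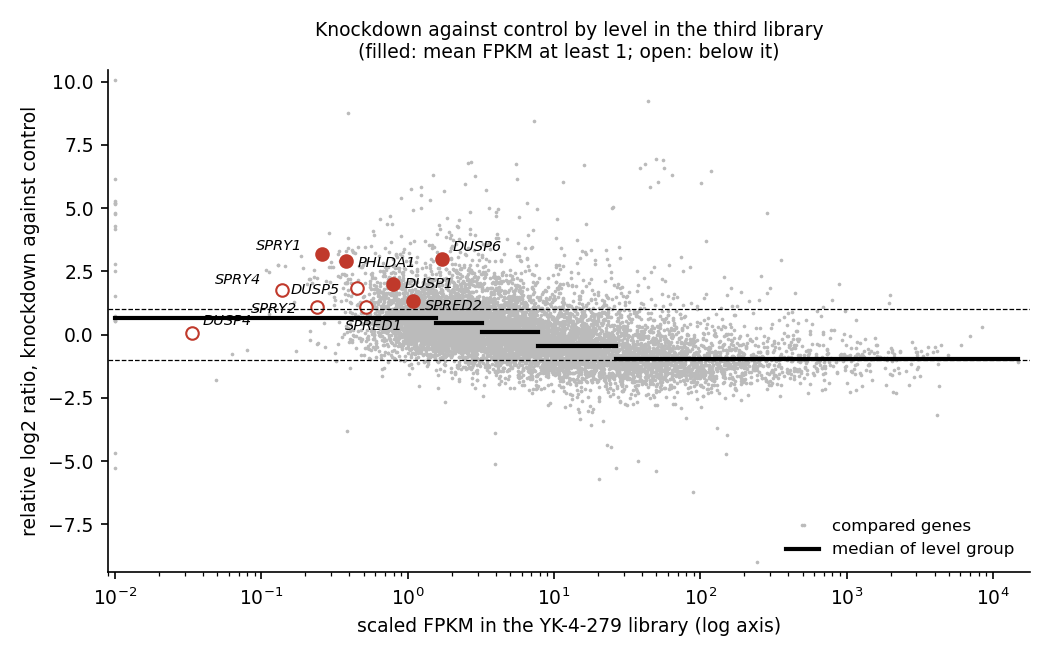
Relative log2 ratio of knockdown against control for 9939 genes (grey) by scaled FPKM in the YK-4-279 library on a log axis, where values under 0.01 are drawn at 0.01; black bars are medians of 5 equal groups, dashed lines the threshold, and the 10 feedback genes are red, open where the mean FPKM was below 1. Medians fall from 0.65 to -0.96 with level, and SPRY1, PHLDA1 and DUSP6 lie near 3.

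The calls after knockdown were not equally firm. Of 12 alternative settings, 8 can move a member's ratio. DUSP5, DUSP6, SPRY1, SPRY4 and PHLDA1 were called higher in 8 of 8, with lowest ratios of 1.18, 1.67, 2.41, 1.13 and 2.16. DUSP1 was called in 6 of 8, with 0.60 on deposited values and 0.75 when libraries were scaled on the olfactory receptor genes. SPRY2, SPRED1 and SPRED2 were called in 4 of 8, and their ratios stayed above 0 in all 8. DUSP4 was called in 2 of 8 and changed sign. For YK-4-279 the direction itself depends on the scale: as deposited and on the olfactory scale 9 members were below the control and DUSP1 was called lower at -1.42 and -1.29, with a pseudocount of 0.1 DUSP5, DUSP6, SPRY4, SPRED2 and PHLDA1 were called higher, and on centred deposited ratios 9 members were.

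**Figure D4:**
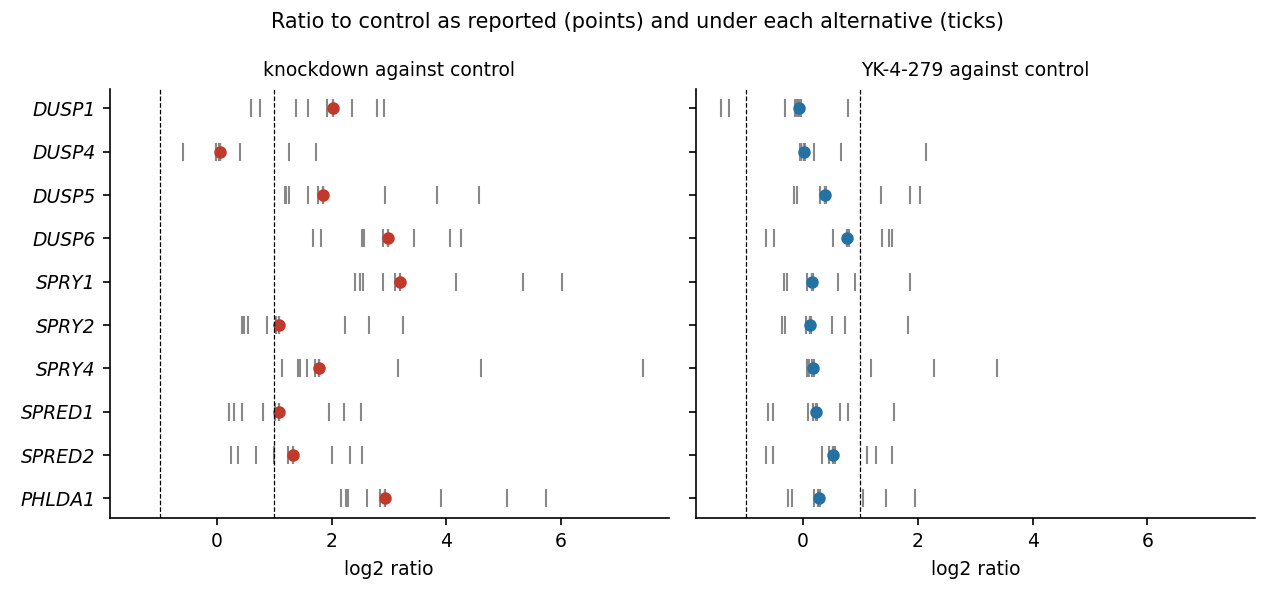
Log2 ratio to control of the 10 feedback genes as reported (points) and under the 12 alternative settings (ticks), for knockdown (left) and YK-4-279 (right); dashed lines mark the threshold. After knockdown the ticks of DUSP5, DUSP6, SPRY1, SPRY4 and PHLDA1 all lie above 1, and with YK-4-279 the ticks of 9 genes fall on both sides of 0.

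Set against each other, the YK-4-279 library was below the knockdown library for all 10 feedback genes, and 6 passed the threshold, DUSP1, DUSP5, DUSP6, SPRY1, SPRY4 and PHLDA1, against 14.5% of the 9939 genes called lower and 7.16% of all names (15.3% and 6.94% were higher). The median ratio of the 10 genes was -1.53, beside -0.015 for the 9939 genes. Ranked by level in the control, all 10 fell in the lowest of 5 equal groups of genes, which had a median of -0.58. Of the 8 settings that can move a member's ratio, DUSP5 was called lower in 6 and SPRY4 in 7. DUSP1, DUSP6, SPRY1 and PHLDA1 were called lower in all 8. SPRY1 was 36.1-fold lower (24.3 to 56.0), PHLDA1 20.2-fold lower (16.7 to 24.6), SPRY4 17.7-fold lower (11.8 to 27.6) and DUSP1 8.36-fold lower (6.40 to 11.1). DUSP6 and DUSP5 were 6.79-fold (6.0 to 7.72) and 6.64-fold lower (4.82 to 9.36). The relative log2 ratios of the genes that did not pass were -0.96 for SPRY2, -0.85 for SPRED1, -0.79 for SPRED2 and -0.03 for DUSP4. The DUSP4 ratio of 0.604 had an interval of 0.204 to 1.63 that includes no difference. Its log2 ratio was above 0 on centred deposited ratios (0.34) and relative to level groups (0.55). This comparison shares a library with each of the others.

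The remaining genes of the pathway were examined from lists chosen with earlier results of these data known, so their counts are a description. Growth factor receptors, which feed the pathway, had 20 listed and 8 compared, of which 6 were higher after knockdown and 0 lower (median 1.36). Among the 9939 genes 17.3% were higher and 17.0% lower. MET passed the filter only through the knockdown library, and without it 5 of 7 were higher. KIT, the stem cell factor receptor, was the highest, with 13.3, 24.3 and 11.2 FPKM in control, knockdown and YK-4-279 (relative log2 ratios 2.75 and 2.21), and it was the 1 receptor called with YK-4-279. Apart from KIT, the receptors called after knockdown fell in the lowest level group by YK-4-279 level, which had a median of 0.65. Receptor ratios relative to the level group were not counted. AXL, measured only on a locus joined with HNRNPUL1, was the lowest of the receptors after knockdown at 0.60, and INSR, the insulin receptor, with YK-4-279 at -0.22. The kinases and adaptors from GRB2 to ERK moved less, with 3 of 26 compared genes higher and 1 lower after knockdown (median 0.48), against 17.3% higher and 17.0% lower among the 9939 genes. Among these were the adaptor SHC1 at 3.07, with 6.89 FPKM in the control and 18.2 after knockdown, the RAS inhibitor RASA1 at 1.36 and the GTPase NRAS at -1.56. With YK-4-279, 0 of 26 were called, from NRAS at -0.52 to RASAL2, a RAS inhibitor, at 0.90.

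Of other dual-specificity phosphatases, 2 of 12 compared genes were higher and 2 lower after knockdown (median 0.45), shares near the 17.3% and 17.0% of all 9939 genes. STYXL1, a pseudophosphatase, was the highest at 1.86 and DUSP16, a JNK phosphatase, stood at 1.09, while DUSP19 was lowest at -1.46 and DUSP11, which acts on RNA, was at -1.40. DUSP11 was also the 1 called gene of this list with YK-4-279, at -1.11, where STYXL1 was the highest at 0.66. The JNK and p38 kinases had 0 of 10 higher and 1 lower after knockdown. That gene, the p38 activator MAP2K6, stood at -2.14 and was also the lowest with YK-4-279 at -0.59, while MAPK8, which encodes JNK1, was the highest after knockdown at 0.78 and MAP3K5 with YK-4-279 at 0.52. SPRY3, SPRED3, PHLDA2 and PHLDA3, the paralogues of the members, all stayed below the mean of 1 FPKM, and SPRY3 was listed at 0 throughout.

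Further genes commonly read as ERK output, apart from the 10 members, had 7 of 16 compared genes higher and 1 lower after knockdown, with a median of 0.77. Among the 9939 genes 17.3% were higher and 17.0% lower. EGR1 and HBEGF passed the filter only through the knockdown library, and without them 5 of 14 were higher and 1 lower, with a median of 0.68. HBEGF, a ligand of the EGF receptor, was the highest at 4.95, with 0.697 FPKM in the control and 25.5 after knockdown. CCND1, cyclin D1, was the lowest at -2.32, with 62.2 and 2.25 FPKM. With YK-4-279 EPHA4, an ephrin receptor, was the 1 called gene at 1.66, and TRIB1, a pseudokinase, was the lowest at -0.97. EGR1, an immediate early transcription factor, had 0.854, 4.91 and 0.632 FPKM (relative log2 ratios 2.66 and 0.87), and the ETS factors ETV5 and ETV4 stood at 1.2 and -0.31 after knockdown; these 3 were picked after their values were seen. The list was thus not uniform. All compared genes had a median of 0.0064, but the lowest and next level groups had medians of 0.65 and 0.46. The list was not set against genes of like level.

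**Figure D5:**
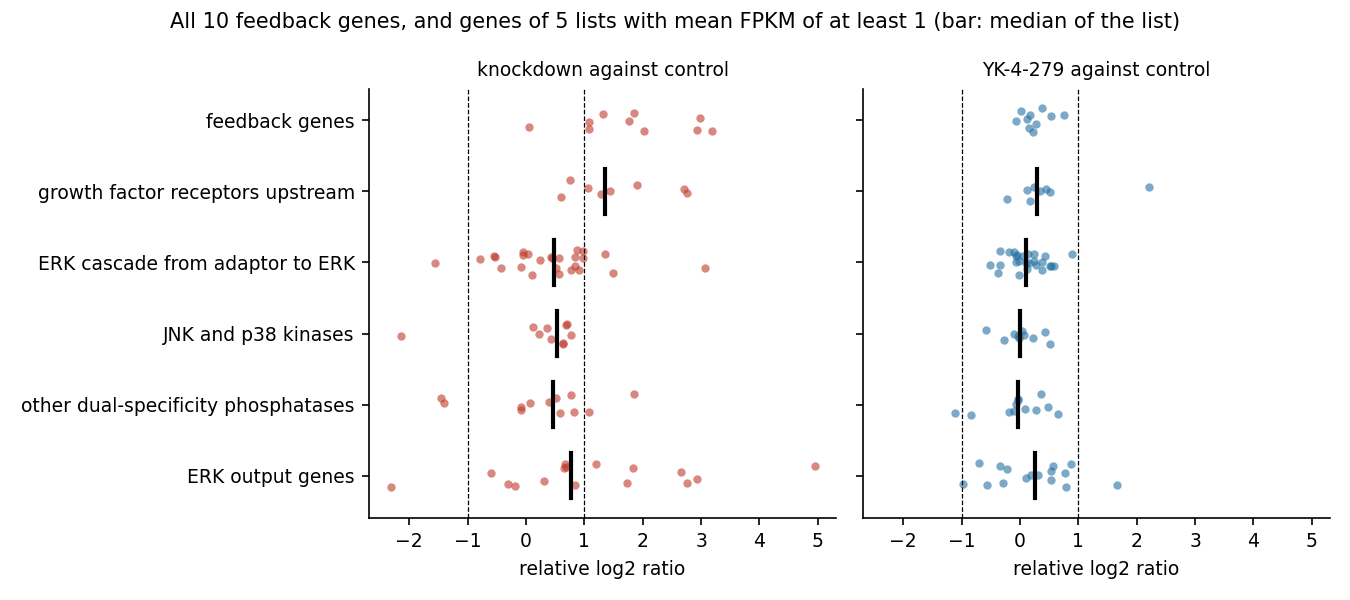
Relative log2 ratio to control of the 10 feedback genes and of the compared genes of 5 pathway lists, for knockdown (left) and YK-4-279 (right); each point is a gene, black bars are list medians, and dashed lines mark the threshold. After knockdown HBEGF at 4.95 and SHC1 at 3.07 stand furthest right in their lists, and with YK-4-279 KIT at 2.21 does.

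Genes of other cell types were read beside these results. Of the 8 fibroblast markers, 5 were compared. After knockdown 4 were higher and 1, DCN, was lower, against 17.3% higher and 17.0% lower among the 9939 genes. Without COL1A1, which passed the filter only through the knockdown library, 3 of 4 were higher. The fibroblast markers were not set against genes of like level. Their summed level was 26.8 scaled FPKM in the control, 61.1 after knockdown and 29.9 with YK-4-279, and 0 of 8 were listed at 0. Endothelial markers summed to 0.165, 1.45 and 1.5, with CLDN5 at 0 in each library, epithelial ones to 2.56, 6.56 and 6.39, with KRT5 at 0, and leukocyte ones to 20.8, 28.3 and 15.2, nearly all from CD68, with CD3E at 0. The part of these markers in the feedback results was not tested, and in bulk RNA a change in the mix of cells and a change per cell cannot be told apart.

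The genes most like DUSP6 were sought among the 9939 by the distance between their pairs of ratios to control, a description over 3 libraries. ITM2B, a membrane protein, was nearest, at a distance of 0.033, with 33.7, 63.5 and 9.02 FPKM in control, knockdown and YK-4-279. PTTG1IP (0.043), the joined locus of FLJ23867 and QSOX1 (0.054), TNFRSF12A, the receptor of the cytokine TWEAK (0.077), and PRNP, the prion protein (0.078), came next. None of these 5 is a gene of the lists above.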

How the data were processed

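RNA-seq of 3 libraries of TC32 cells was analysed, 1 per group. The authors deposited FPKM for 88434 loci per library. Per the submitters' processing notes, CASAVA 1.8.2, TopHat and Cufflinks 2.2.1 were used with GRCh37 (hg19). The annotation, any scaling between libraries and how multiply mapped reads were handled were not stated in those notes or the labels. Rows that share a name were added up with pandas 2.3.3 in Python 3.11.15. Each library was divided by its median ratio to the geometric mean over 9883 genes with a mean of at least 1 FPKM and above 0 in all 3 libraries. The plan named all genes above 0, and that scale is an alternative. A value of 1 was added before taking log2. Depth was estimated from the lowest values of 137 olfactory receptor genes with 1 transcript of 850 to 1100 bases in GENCODE release 29. Alternatives were 10 planned and 2 added after seeing the data. Those 2 were the olfactory scale and the all-gene scale, which the plan had worded as the main scale. The GGAA search and the olfactory and unnamed loci were also added then. Members and lists were chosen with earlier results of these data known. Named genes are the 10 members, FLI1 and EWSR1, the highest and lowest gene of each list in each comparison with control, all called genes of lists with at most 5, and the 5 genes nearest DUSP6. Of these, 1 called gene is not reported here. A planned comparison of the proteins was not made.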

Additional observations from a re-analysis of the deposited data

How the results depend on the processing

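With 1 library per group no library could be left out. No paired analysis was possible because each group holds a single library. Of the 12 alternatives, the 3 filters and the exact-name rule leave members' ratios as they are, and under a mean of at least 5 FPKM 0 members pass. As deposited, 5 members and 301 of the 9939 genes were higher and 7094 lower after knockdown, 1 member was lower and 57 genes were higher and 9160 lower with YK-4-279, and 505 were higher with YK-4-279 than after knockdown. Centring deposited ratios gave 9 members, 1225 genes higher and 446 lower with YK-4-279. Pseudocounts of 0.1 and 0.01 each gave 5 members higher with YK-4-279, with 629 and 707 genes higher and 288 and 313 lower. Without a filter 363 genes were higher with YK-4-279. Under the stricter filter 662 genes were higher after knockdown and 136 with YK-4-279, and 655 were lower with YK-4-279 than after knockdown. Relative to level groups, 904 genes were lower after knockdown and 786 higher with YK-4-279 than after knockdown. SPRY2, SPRED1 and SPRED2 were then not called after knockdown. Scaling on all named genes gave 911 higher and 3358 lower after knockdown and 155 and 813 with YK-4-279, and moved the median to -0.50 and -0.38. On that scale too, SPRY2, SPRED1 and SPRED2 were not called after knockdown. Scaling on olfactory genes gave 5 members higher, 352 genes higher and 6637 lower after knockdown, 1 member lower, 58 genes higher and 8848 lower with YK-4-279, and 557 higher with YK-4-279 than after knockdown. As reported, 9 members, 1715 genes higher and 1689 lower after knockdown, 0 members, 240 and 168 with YK-4-279, and 1516 higher and 1442 lower between them; the cause of these moves was not tested. Fragments behind the control level were about 1 for SPRY4 and 5 for DUSP4, which limits their ratios.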

Other observations

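Among phosphatases and kinases below the mean of 1 FPKM, which entered no count, DUSP10, a phosphatase of JNK and p38, had 0.183 FPKM in the control, 0.856 after knockdown and 0.355 with YK-4-279. Its relative log2 ratios were 1.08 and 0.73. MAP3K1, a kinase that activates the JNK branch, stood at 1.37 and 0.42 on the same scale. Both were picked after their values were seen.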
